A study of Mus musculus with 33 samples.

Results

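RNA from sorted mature olfactory sensory neurons of Dnmt3a null mice was set against RNA from the whole main olfactory epithelium of Dnmt3a null mice, gene by gene, to see which transcripts the neurons carry more or less of than the tissue they were taken from. Genes were joined by Ensembl identifier. Of 15988 genes listed in either RNA table with values, 13369 were listed in both and make up the comparison. A further 1375 were listed only for sorted neurons and 1244 only for the epithelium.

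The null (KO) sorted neurons are given as 1 pooled value per gene from 2 libraries, and the KO epithelium as 2 libraries, 1 from mice exposed to odor and 1 from mice exposed to water. All mice were 3 weeks old and homozygous null (-/-) for Dnmt3a, which encodes a DNA methyltransferase that places new methyl marks. The epithelium mice had a filter paper carrying 80 µL of water, or of equal parts amyl acetate, acetophenone and octanal, for 60 min after 10 min in the cage. The neurons came from mice with no exposure given in the labels, and were isolated by fluorescence-activated sorting. The 4 libraries were made with the NuGEN Encore Complete kit from 100 ng of total RNA depleted of ribosomal RNA. Heterozygous (Het, +/-) and wild-type (WT, +/+) neurons and epithelium of the same age are given beside the null where stated. Both WT neuron libraries were made with another kit (ScriptSeq, from 200 ng) and the Het neurons with 1 library of each kit, so among sorted neurons genotype and kit cannot be told apart. The labels give neither the allele's structure, the gene or reporter used for the sort, nor the number or sex of the animals in a library. Of the 33 samples of the series, 12 were RNA libraries.

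The main olfactory epithelium holds ciliated sensory neurons that each express 1 odorant receptor gene, the supporting (sustentacular) cells around them, the basal cells that renew them, and the Bowman glands that secrete the mucus. In a mature neuron an odorant receptor acts through the G protein Golf and adenylyl cyclase 3, and the cyclic AMP made there opens a cation channel in the cilia, followed by a calcium-activated chloride channel. Supporting and gland cells carry large amounts of detoxifying enzymes and odorant-binding lipocalins, which serve here as a mark of transcripts of the surrounding tissue. They do not measure its amount, since gland genes also differed between libraries of whole epithelium. In WT the summed Bowman gland level was 90400 in the water and 750195 in the odor library.

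Values are the deposited RPKM-scale values (read density per gene length and library depth). Enrichment is log2(neurons + 0.5) minus log2(mean of both epithelium libraries + 0.5), and is a difference, not a level. A gene is called higher or lower in neurons where it lay at least 2-fold above or below the mean of the epithelium and each of its libraries. The tables were normalized separately and there is 1 pooled neuron value, so no test of a gene or list was possible and no SD of the neuron value can be given. The only spread in hand is that between the water and odor libraries, which also differ in treatment. Between those libraries 1040 genes (7.78%) lay 2-fold or more apart, the median size of the difference was 0.25, and the median size of the enrichment was 0.73. For 76.3% of genes the enrichment was larger than the difference between the epithelium libraries. In bulk RNA, fewer cells of a type and less RNA per cell cannot be told apart. The epithelium values rested on 9410063 recovered reads in the water and 11384079 in the odor library, with a median of 222 and 249 per gene. The depth behind the neuron values is unknown.

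Dnmt3a itself read 56.2 in KO neurons, against 56.1 in the water and 48.3 in the odor library. In Het the values were 119.9 in neurons, 50.3 in water and 66.6 in odor epithelium, and in WT 175, 84.4 and 89.0. KO neurons were thus at the lowest of the neuron values, while the Het water epithelium lay between the KO epithelium libraries. A value over the whole gene cannot check the deletion, since the labels do not say which exons are missing.

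Across the comparison 1520 genes (11.4%) were called higher and 2497 (18.7%) lower in KO neurons. At 4-fold the counts were 345 (2.58%) and 981 (7.34%), and at 8-fold 74 (0.554%) and 406 (3.04%), so the depleted side was the longer one. Counted by rank alone, 5354 genes (40%) lay above and 6372 (47.7%) below both epithelium libraries. The median over all genes was -0.11, with an SD across genes of 1.39. The balance changed with how the tables were scaled. The 10 most abundant genes took 12.1% of the neuron column, against 24.5% of the water and 26.9% of the odor column, and their part in the balance was not tested. Scaling all columns to the same sum moved the all-gene median by 0.48 and gave 2933 higher and 1551 lower genes. Quantile normalization moved it by 0.23 and gave 2067 and 2046, and centring the median at 0 moved it by 0.11 and gave 1792 and 2212. Enrichments below are therefore best read relative to the all-gene median.

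The 4 genes chosen to check the samples were Omp (olfactory marker protein) and Stoml3 (a stomatin-family membrane protein of olfactory cilia) for mature neurons, Cyp2g1 (an olfactory cytochrome P450) for supporting cells, and Krt5 (a basal cell keratin) for horizontal basal cells. Omp read 7612 in KO neurons, against 3296 in the water and 5752 in the odor library, a log2 enrichment of 0.75. Stoml3 read 27686 in KO neurons, against 9478 in the water and 11768 in the odor library, an enrichment of 1.38. Both lay above each epithelium library, although Omp was less than 2-fold above the odor library and so was not called. Cyp2g1 read 80.9 in KO neurons, against 9468 in the water and 8821 in the odor library, an enrichment of -6.81. Krt5 read 24.9 in KO neurons, against 83.8 in the water and 43.6 in the odor library, an enrichment of -1.34, and also missed the call because the odor library was less than 2-fold above the neurons. Omp and Stoml3 thus lay above, and Cyp2g1 far below, the epithelium as the neuron label implies, and Krt5 was lower by a smaller factor.

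**Figure D1:**
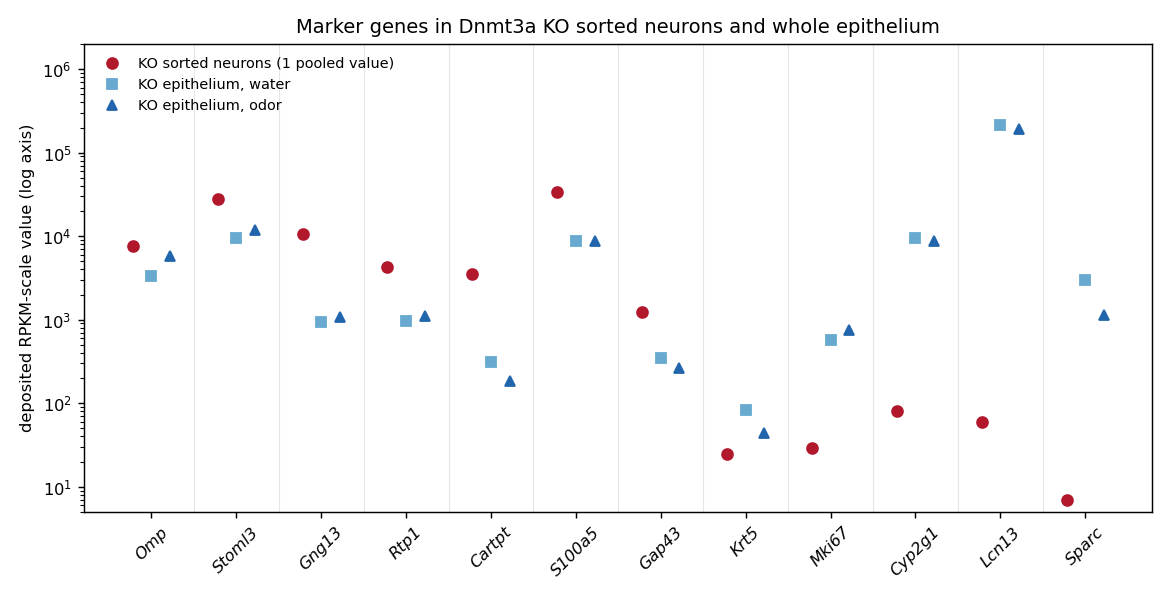
Deposited RPKM-scale values (log axis) of 12 marker genes in KO sorted neurons (circles, 1 pooled value) and in the water (squares) and odor (triangles) KO epithelium libraries. Neuronal genes such as Gng13 (10641 in neurons, 950.2 and 1065 in epithelium) lie above both epithelium libraries, and Cyp2g1, Lcn13 and Sparc lie far below them.

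Mature neuron genes had the highest median of the gene lists. Of 25 joined, 13 were called higher and 0 lower, 24 lay above both epithelium libraries, and the median was 1.24. Their summed level was 123725 in KO neurons, against 36087 in the water and 45787 in the odor library. Cartpt, the precursor of the CART neuropeptides, had the highest enrichment of the list at 3.80, with 3491 in KO neurons, against 313 in the water and 186 in the odor library. Next came Gng13, the gamma subunit that pairs with Golf, at 3.40, with 10641 in KO neurons, against 950.2 in the water and 1065 in the odor library. S100a5, a calcium-binding protein of mature neurons, read 34194 in KO neurons, against 8746 in the water and 8822 in the odor library (1.96). These genes were far apart from the epithelium in level, whereas Ncam2, an axonal adhesion molecule, read 106 in KO neurons, against 109 in the water and 97.6 in the odor library, an enrichment of 0.04, and Kirrel2, another adhesion molecule of these axons, had 0.09. Enrichment within the mature list therefore ran from 0.04 to 3.80.

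Of 8 joined genes of receptor transport and membrane assembly, which share members with the mature list, 4 were higher and 1 lower (median 1.03). Among the transporters that bring odorant receptors to the surface, Rtp1 read 4283 in KO neurons, against 974 in the water and 1116 in the odor library (2.04), and its relative Rtp2 read 3336 in KO neurons, against 623 in the water and 624 in the odor library (2.42). Both were called higher with nearly equal values in the epithelium libraries. Ric8b, the exchange factor that stabilises Golf, read 3579 in KO neurons, against 1410.4 in the water and 3249 in the odor library, so that its enrichment of 0.62 rested mainly on the water library.

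Of 24 transduction genes joined, 7 were called higher and 2 lower, with a median of 0.70 and 18 above both libraries. Adcy3, adenylyl cyclase 3, read 434 in KO neurons, against 136 in the water and 216 in the odor library (1.30). Cnga2, the main subunit of the cyclic nucleotide-gated channel, read 4538 in KO neurons, against 1699 in the water and 2473 in the odor library, and missed the call at 1.12 because it was less than 2-fold above the odor library. Its partner subunits Cnga4 and Cngb1 had enrichments of 1.24 and 1.06, of which only Cnga4 was called. The channel subunits thus shifted by similar amounts, while Ano2, the chloride channel that follows them, was further up at 2.08, with 294 in KO neurons, against 60.5 in the water and 78.1 in the odor library. Gnal, the Golf alpha subunit, was at 0.54, with 3469 in KO neurons, against 1972 in the water and 2804 in the odor library. Gnb1, a G protein beta subunit, had 1.94. The 2 members called lower dampen G protein signalling: Rgs2, a regulator of G protein signalling, read 7.94 in KO neurons, against 46.6 in the water and 35.3 in the odor library (-2.30), and Adrbk2, a receptor kinase, read 10.6 in KO neurons, against 32.3 in the water and 27.7 in the odor library (-1.46).

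Cilia transport and synaptic genes moved less. In the cilia transport list 8 of 35 genes were called higher and 0 lower, with a median of 0.67. Arl6, a small GTPase that recruits the BBSome cargo coat, led it with 397 in KO neurons, against 91.5 in the water and 67 in the odor library (2.32), followed by Kifap3, the accessory subunit of the kinesin-II motor, at 1.66. In the synaptic list 6 of 29 were higher and 1 lower, with a median of 0.29, led by Syp (synaptophysin) with 516 in KO neurons, against 107 in the water and 100.3 in the odor library (2.31). Of the 24 joined protocadherins, adhesion molecules of neuronal surfaces, 4 were higher and 0 lower, with a median of 0.76. The highest protocadherin was Pcdhb1, with 2172 in KO neurons, against 474 in the water and 461 in the odor library (2.21). Ion channel genes (7 higher, 5 lower of 35) had a median of 0.19. Axon guidance genes (4 higher, 5 lower of 28) had a median of -0.05, near that of all genes, and its sign turned positive under the 3 rescalings above. Within the guidance list the ends lay far apart. Sema7a, a semaphorin, read 1099.7 in KO neurons, against 123 in the water and 308 in the odor library (2.35), and Efna3, an ephrin, had 2.16. Plxna2, a semaphorin receptor, read 8.52 in KO neurons, against 62.4 in the water and 81.8 in the odor library (-3.01), and Slit2, a secreted guidance protein, had -2.11.

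**Figure D2:**
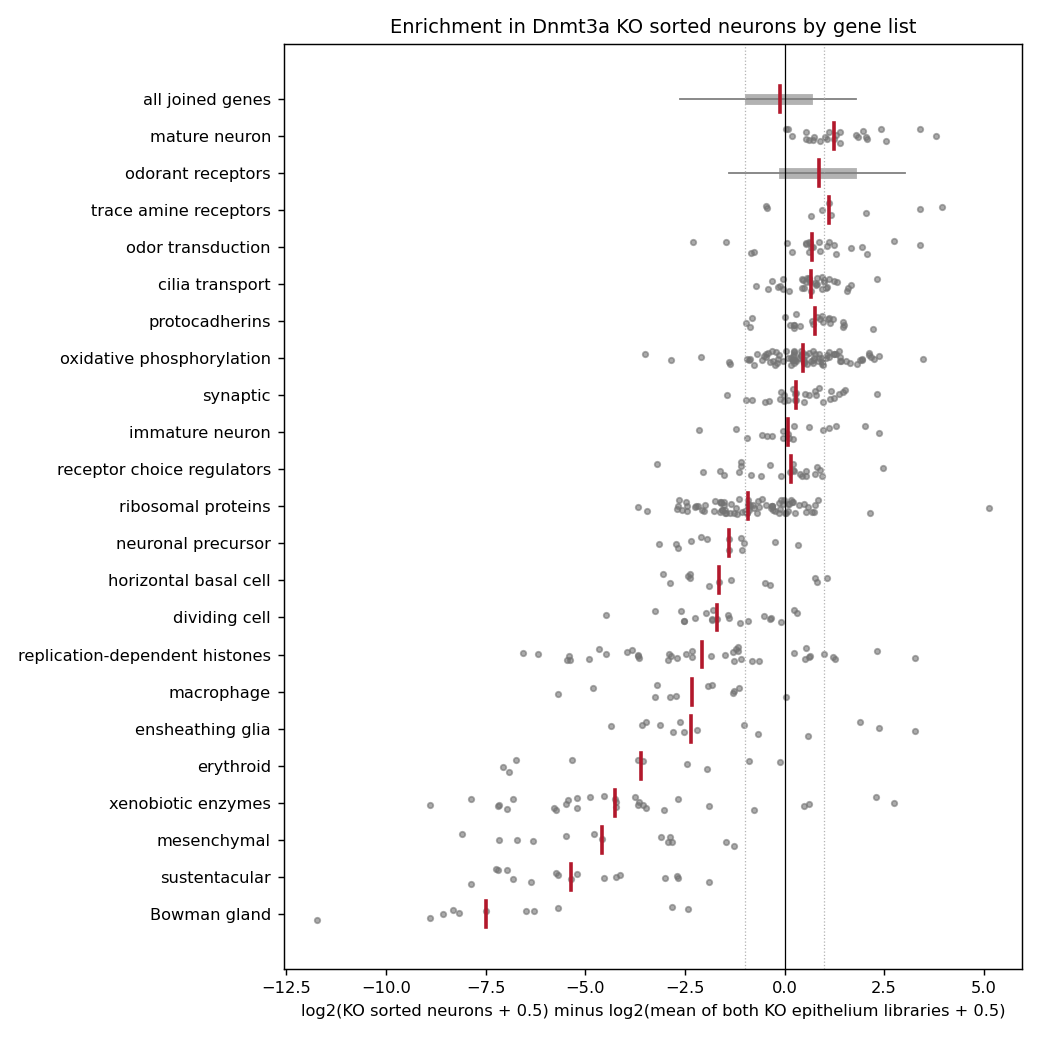
Log2 enrichment of each joined gene in KO sorted neurons over KO epithelium, by gene list (points: genes; red bars: list medians; for all joined genes and odorant receptors, thick and thin lines span the middle 50% and 90% of genes; dotted lines: 2-fold). Medians run from 1.24 for mature neuron genes to -7.48 for Bowman gland genes.

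Odorant receptors were listed more often for neurons than for the epithelium, with 816 in the neuron table and 579 in the epithelium table. Of all genes, 14744 and 14613 were listed. No joined gene lacked a value in KO, the lowest being 0.61 in neurons, 0.065 in water and 0.056 in odor epithelium. The rule for listing a gene is not given, and neuron columns are pooled while epithelium columns are single libraries. What part this has in the receptor counts and in which receptors were joined was not tested. Of the 506 listed in both, 162 (32.0%) were called higher and 19 (3.75%) lower, beside 11.4% and 18.7% of all joined genes. The median was 0.86, and 327 (64.6%) lay above both epithelium libraries. The median receptor read 48.3 in KO neurons, against 20.0 in the water and 34.2 in the odor library. The enrichment was accordingly 1.27 against water and 0.58 against odor, a gap larger than that of the all-gene medians. Receptors made up 10.7% of the genes called higher and 3.78% of all joined genes. The epithelium reads behind them were few, with a median of 55 over both libraries, and among receptors with at least 50 reads the median was 0.33, a limit that also removes receptors because they are low in the epithelium.

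The most abundant receptor in KO neurons was Olfr1507, with 1045 in KO neurons, against 538 in the water and 366 in the odor library (1.21). It was followed by Olfr1297, with 659.7 in KO neurons, against 90.8 in the water and 264 in the odor library (1.89), and by Olfr969, with 587 in KO neurons, against 23.1 in the water and 112 in the odor library (3.11). All 3 lay above both epithelium libraries, the last 2 by 2-fold or more. The receptors with the largest enrichments were Olfr606 at 4.26, Olfr578 at 4.16, Olfr1395 at 4.11 and Olfr1511 at 3.99. Of these, Olfr606 rested on 4 epithelium reads, and its neuron to epithelium ratio of 22.7 had a 95% exact Poisson interval of 8.88 to 83.5. Olfr1395 rested on 37 reads, with a ratio of 17.6 and an interval of 12.8 to 25.1. These intervals cover counting error of the epithelium reads only.

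At the other end stood Olfr775, with 4.23 in KO neurons, against 130.1 in the water and 64.5 in the odor library (-4.37), Olfr457, with 3.8 in KO neurons, against 49 in the water and 47.5 in the odor library (-3.50), and Olfr1359, with 7.52 in KO neurons, against 77 in the water and 81.5 in the odor library (-3.31). These receptors were well above the median receptor in the epithelium and far below it in KO neurons. In WT their enrichments were -0.06, -1.58 and -1.91. A further 310 receptors were listed only for neurons, where their median was 27.7 and the highest was Olfr1110 at 319.6.

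Trace amine-associated receptors, a second family of olfactory receptors, were joined for 9 genes, of which 3 were called higher and 0 lower (median 1.12). Taar2 read 153 in KO neurons, against 12.5 in the water and 15.4 in the odor library (3.41), and Taar4 read 74.3 in KO neurons, against 1.22 in the water and 7.53 in the odor library (3.94), which rested on 8 epithelium reads. Vomeronasal receptors were listed for 10 genes in neurons and 9 in the epithelium, with 0 in common. Of 5 genes of the guanylyl cyclase D neurons, a separate sensory type, Gucy2d was at 1.57, with 27.5 in KO neurons, against 9.49 in the water and 8.37 in the odor library, and Pde2a at -2.50. The median of the list was 1.19, and only 2 members had an epithelium mean of 10 or more.

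**Figure D3:**
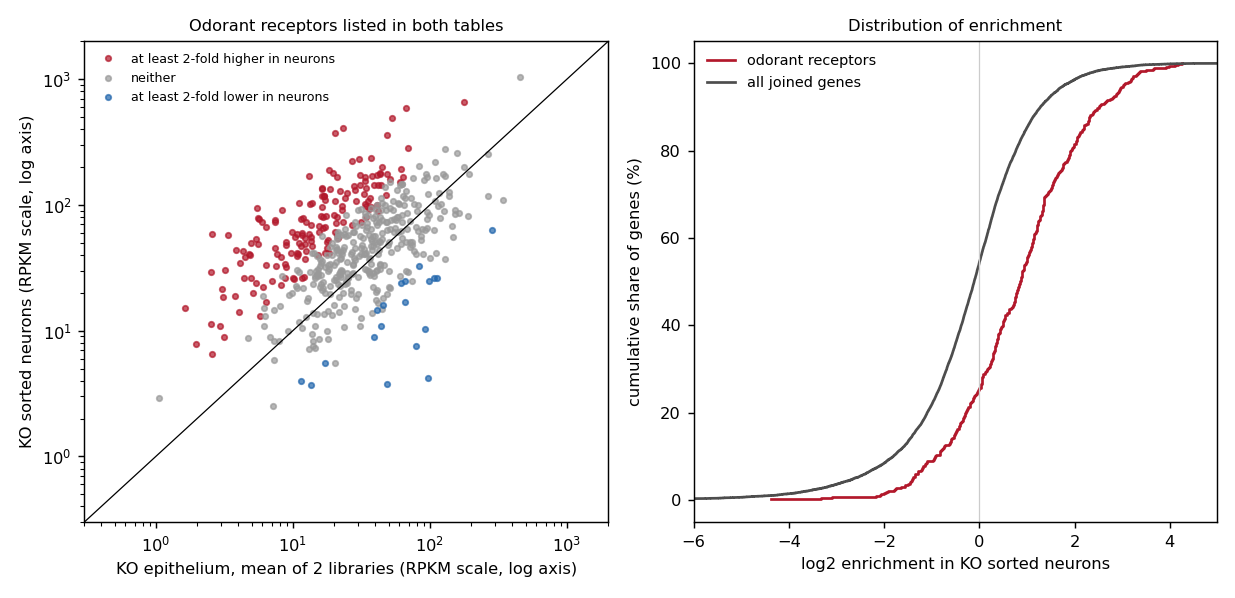
Odorant receptors in KO sorted neurons and epithelium. Left: the neuron value (vertical) against the mean of both KO epithelium libraries (horizontal), RPKM scale, log axes, for 506 receptors (red, 162 called higher; blue, 19 called lower). Right: cumulative share of receptors and of all joined genes by log2 enrichment, with the receptor curve to the right of the curve for all genes.

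The regulators of receptor choice were mostly near the all-gene median, with 1 of 24 called higher and 7 lower (median 0.17). The gene called higher was Emx2, a homeobox factor needed for full odorant receptor expression in mice, with 360.0 in KO neurons, against 73.3 in the water and 54.9 in the odor library (2.48). Lhx2, a LIM-homeobox factor that binds receptor enhancers, read 588 in KO neurons, against 354 in the water and 277 in the odor library (0.90). The Ebf genes encode the O/E factors that bind receptor promoters. Ebf1 read 988 in KO neurons, against 660.5 in the water and 695 in the odor library (0.54), and Ebf2, Ebf3 and Ebf4 had 0.38, 0.44 and 0.25. Each of these lay above both epithelium libraries by less than 2-fold. The heterochromatin proteins were on the other side: Cbx3 (HP1 gamma) read 66.2 in KO neurons, against 601 in the water and 627 in the odor library (-3.20), and Cbx5 (HP1 alpha) read 40.9 in KO neurons, against 175 in the water and 163 in the odor library (-2.04).

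The known binding motifs of these factors were looked for in RefSeq promoter windows (GRCm38.p6, 250 bases before to 50 after each start), which were matched by symbol for 9892 joined genes. The core of the O/E site, TCCC and GGGA with any 2 bases between them, was found in 1.02% of 293 windows of genes at least 4-fold higher, in 1.43% of 906 windows of genes at least 4-fold lower and in 1.07% of 12664 windows of all joined genes, and in 0.904% of the 32851 windows of the whole table. The homeobox core TAATTA, its own reverse complement like the other motif (so that 1 strand covers both, and neither can overlap the other), was found in 7.17%, 3.86%, 3.16% and 5.29% of the same sets. Without odorant receptors the share for TAATTA was 4.64% of 237 windows of genes at least 4-fold higher and 2.70% of 12239 windows of all joined genes, so that receptors carried part of the difference. A match in a window is a description of its letters and says nothing of binding.

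Windows of 3 genes higher in KO neurons are shown because they hold a motif and their transcripts are abundant; they were chosen after their values were seen. Acbd7, an acyl-CoA-binding protein, read 7169.6 in KO neurons, against 714 in the water and 531 in the odor library (3.53), and its window (chr2:3335918-3336217, + strand) holds the O/E core. Uncx, a homeobox factor, read 642 in KO neurons, against 74.6 in the water and 150.2 in the odor library (2.51), and its window (chr5:139543648-139543947, + strand) holds TAATTA in 2 places. The window of Emx2 (chr19:59458440-59458739, + strand) holds it just after the start. Capitals mark the motifs, and each window is printed 5′ to 3′.
Acbd7: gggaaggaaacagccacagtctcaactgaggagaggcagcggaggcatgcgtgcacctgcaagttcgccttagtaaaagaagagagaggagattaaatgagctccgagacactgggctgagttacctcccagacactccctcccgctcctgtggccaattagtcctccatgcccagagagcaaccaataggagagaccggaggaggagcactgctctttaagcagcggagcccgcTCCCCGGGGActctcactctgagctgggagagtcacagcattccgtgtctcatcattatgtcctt
Uncx: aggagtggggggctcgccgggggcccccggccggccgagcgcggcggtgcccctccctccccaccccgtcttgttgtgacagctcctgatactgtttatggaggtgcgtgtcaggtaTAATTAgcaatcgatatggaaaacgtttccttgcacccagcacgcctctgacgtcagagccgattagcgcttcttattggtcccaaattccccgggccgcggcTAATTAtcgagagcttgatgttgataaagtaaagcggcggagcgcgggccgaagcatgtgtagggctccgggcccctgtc
Emx2: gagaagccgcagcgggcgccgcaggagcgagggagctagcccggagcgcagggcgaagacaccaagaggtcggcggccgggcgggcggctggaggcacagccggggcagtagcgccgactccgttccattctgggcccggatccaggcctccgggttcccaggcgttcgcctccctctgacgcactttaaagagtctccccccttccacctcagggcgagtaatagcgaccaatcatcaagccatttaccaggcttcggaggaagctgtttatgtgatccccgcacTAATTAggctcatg

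Of the stages before the mature neuron, immature neuron genes were near the all-gene median, while precursor and dividing cell genes were lower. The immature list had a median of 0.10, with 3 of 18 called higher and 2 lower, and its sign turned against the water library alone (-0.06). Gap43, a growth cone protein, read 1242 in KO neurons, against 347 in the water and 261 in the odor library (2.03), and Stmn4, a microtubule regulator, read 436 in KO neurons, against 88 in the water and 80.6 in the odor library (2.36). Ablim1, an actin-binding protein, read 4.53 in KO neurons, against 20.2 in the water and 23.3 in the odor library (-2.14). Neuronal precursor genes had a median of -1.40, with 0 of 13 higher and 8 lower. Among them Neurod1, a proneural factor, read 8.94 in KO neurons, against 60.6 in the water and 33.6 in the odor library (-2.33), and Insm1, a zinc finger factor of dividing and newborn neurons, read 451 in KO neurons, against 378 in the water and 341 in the odor library (0.33). Neurog1, an early proneural factor, was listed only for the epithelium.

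Dividing cell genes had a median of -1.69, with 13 of 21 lower and 0 higher. Mki67, a marker of cycling cells, was the lowest, with 29.4 in KO neurons, against 577 in the water and 744 in the odor library (-4.47), and Top2a, a topoisomerase of dividing cells, read 11 in KO neurons, against 74.9 in the water and 63.7 in the odor library (-2.60). Plk1, a mitotic kinase, read 46.2 in KO neurons, against 43.9 in the water and 30.1 in the odor library (0.32) and lay above both libraries. Replication-dependent histone genes had 24 of 40 lower and 3 higher, with a median of -2.08. Horizontal basal cell genes had 7 of 13 lower and 0 higher (median -1.65). Trp63, the basal cell regulator p63, read 4.49 in KO neurons, against 20.8 in the water and 15.5 in the odor library (-1.90), while the keratin Krt14 read 22.6 in KO neurons, against 36.5 in the water and 21.9 in the odor library (-0.36), within the range of the epithelium.

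Supporting cell and gland genes were the most depleted. All 17 joined sustentacular genes were called lower, with a median of -5.35, and their summed level was 1827 in KO neurons, against 64364 in the water and 61552 in the odor library. The median member was at 2.22% of its epithelium mean. None was listed at 0 in neurons, but this holds for every joined gene, the lowest KO neuron value being 0.61. Cyp2a5, a P450 that oxidises coumarin and nicotine, read 56.2 in KO neurons, against 12419 in the water and 13908 in the odor library (-7.86). The least depleted was Ugt2a1, an olfactory glucuronosyltransferase, with 780.3 in KO neurons, against 2704 in the water and 3094 in the odor library (-1.89), at 26.9% of its epithelium mean. It stood apart from Cyp2a5 at 0.427% and Cyp2g1 at 0.884%.

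All 11 joined Bowman gland genes were lower too, with a median of -7.48. Lcn13, an odorant-binding lipocalin, read 59.7 in KO neurons, against 214498 in the water and 193343 in the odor library (-11.73). Among plainly named joined genes it had the highest mean in the KO epithelium. Scgb1c1, a secretoglobin, read 138 in KO neurons, against 43594 in the water and 36438 in the odor library (-8.17). Several secreted proteins that were abundant in the epithelium were not listed for neurons at all, led by Obp1b and Obp1a, odorant-binding proteins which read 42932 and 37221 in the water library and 58519.5 and 44271 in the odor library.

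Of 30 xenobiotic enzymes joined, 25 were lower and 2 higher, with a median of -4.24. The 2 higher ones were Nqo1, a quinone reductase, with 4101 in KO neurons, against 379 in the water and 838 in the odor library (2.75), and Sult1d1, a sulfotransferase, with 1922 in KO neurons, against 383 in the water and 398 in the odor library (2.30). Both were also called higher in WT (2.51 and 2.69). The lowest was Cyp2a4, a steroid-hydroxylating P450, with 13 in KO neurons, against 6044 in the water and 6794 in the odor library (-8.90), which shares much of its sequence with Cyp2a5, so reads may be split between them.

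Other tissue components were depleted to differing degrees. Mesenchymal genes had 12 of 13 lower and a median of -4.57, led by Sparc, a matrix protein, with 7 in KO neurons, against 2951 in the water and 1126 in the odor library (-8.09), and Col1a1, a collagen chain, had -7.16. Erythroid genes had 8 of 10 lower and a median of -3.61. The haemoglobin genes were unevenly placed: Hba-a1 read 125 in KO neurons, against 18534 in the water and 11399.6 in the odor library (-6.90), and Hbb-b1 read 1985 in KO neurons, against 30044 in the water and 16298 in the odor library (-3.54). The globin genes are near-identical in pairs, so their single values are uncertain. Macrophage genes had 10 of 12 lower and 0 higher (median -2.32), with C1qa, a complement subunit, at -4.80, and neutrophil genes 4 of 7 lower and 0 higher (median -3.18). Ensheathing glia genes had 8 of 14 lower and 3 higher, with a median of -2.36. Erbb3, a neuregulin receptor of glia, read 29.5 in KO neurons, against 269 in the water and 401 in the odor library (-3.48), and Foxd3, a neural crest factor, read 21.3 in KO neurons, against 1.61 in the water and 1.89 in the odor library (3.28).

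Endothelial genes (0 higher, 2 lower of 11) had a median of 0.15, whose sign turned under quantile normalization, at least 5 in either tissue and without the water library. Only 4 members had an epithelium mean of 10 or more. Eng, a TGF-beta co-receptor of vessels, read 6.36 in KO neurons, against 33.3 in the water and 33.5 in the odor library (-2.31), and Tie1, a vessel receptor kinase, read 9.52 in KO neurons, against 4.44 in the water and 4.92 in the odor library (0.95). Microvillous and brush cell genes were split, with 2 of 10 higher and 4 lower (median -0.81). Atp6v1b1, a proton pump subunit, read 33.5 in KO neurons, against 528 in the water and 663 in the odor library (-4.13), while the brush cell channel Trpm5 read 6.48 in KO neurons, against 1.13 in the water and 1.4 in the odor library (1.98). Both higher members, Trpm5 and Plcb2, had epithelium values of a few units. Respiratory ciliated cell genes (3 higher, 2 lower of 15, median 0.20, but -0.0099 against the water library alone), bone and cartilage genes (0 and 5 of 10, -2.07) and muscle genes (1 and 2 of 8, -1.15, but 0.30 against the water library alone) completed the tissue lists. The 4 joined lymphocyte genes had a median of 0.68, with 1 higher, and 1 member, Cd79a at -0.59, had an epithelium mean of 10 or more.

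Genes used by every cell also differed in level between neurons and tissue. Nuclear-encoded oxidative phosphorylation genes had 19 of 86 higher and 5 lower (median 0.47). Uqcrq, a subunit of complex III, led them with 605 in KO neurons, against 61.2 in the water and 46.8 in the odor library (3.47), and Cox8b, a tissue-specific subunit of cytochrome oxidase, was lowest with 29.1 in KO neurons, against 411 in the water and 251 in the odor library (-3.49). Ribosomal protein genes had 34 of 82 lower and 2 higher, with a median of -0.91. Rpl19 read 959 in KO neurons, against 11845 in the water and 12866 in the odor library (-3.69). Many of these genes have near-identical pseudogene copies. Over all 257 joined genes with a named pseudogene copy the median was -0.67 and 36.2% were lower, against -0.10 and 18.3% of the 13112 without. What the copies contribute was not tested. Housekeeping genes had 2 of 24 higher and 9 lower (median -0.78), among them Hprt, a purine salvage enzyme, at 2.35 and Eef1a1, a translation elongation factor, at -3.03.

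The genes of DNA methylation, which are of interest in a null for Dnmt3a, had 1 of 16 higher and 6 lower (median -0.34, but 0.14 with all columns scaled to one sum). Dnmt1, the maintenance methyltransferase, read 226 in KO neurons, against 220.0 in the water and 217 in the odor library (0.05), and Tet3, which oxidises methylcytosine, read 158 in KO neurons, against 190.2 in the water and 173 in the odor library (-0.20). Tet2 read 63.8 in KO neurons, against 139 in the water and 164 in the odor library (-1.24). Mbd2, a methyl-CpG binding protein, was the member called higher, with 389 in KO neurons, against 158 in the water and 179.6 in the odor library (1.20). Tet2 was called lower, and Dnmt1 and Tet3 lay within 2-fold of both libraries. Polycomb genes had 1 of 11 higher and 3 lower (median 0.15), with Ezh2, the methyltransferase subunit of dividing cells, at -1.40 and its relative Ezh1 at -0.54.

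Immediate early genes, which respond to activity within minutes, depended on which epithelium library was used. The list had 8 of 29 higher and 4 lower, with a median of 1.42 against the water library and -0.17 against the odor library. Fos read 499 in KO neurons, against 22.4 in the water and 322 in the odor library, and Egr1, a zinc finger factor, read 224 in KO neurons, against 27.8 in the water and 399 in the odor library. Fos in KO neurons was thus above both libraries, and Egr1 between them. Others were well above both: Atf3, a stress-induced factor, read 125 in KO neurons, against 11.2 in the water and 14.4 in the odor library (3.24), Dusp5, a phosphatase of ERK, read 256 in KO neurons, against 10.8 in the water and 45.8 in the odor library (3.16), and Jun, an AP-1 subunit, read 1201 in KO neurons, against 462 in the water and 539 in the odor library (1.26). In WT the enrichments of Atf3 and Jun were 0.49 and 0.26, against the mean of the WT water and odor libraries. The WT list median was 0.91 against water alone and -0.62 against odor alone. Heat shock genes had 2 of 17 higher and 5 lower (median -0.10, positive when the columns were rescaled to one sum or centred and without the water library), from Hspa5, the chaperone of the endoplasmic reticulum, with 569.7 in KO neurons, against 169 in the water and 132 in the odor library (1.92), to Serpinh1, a collagen chaperone, with 13.3 in KO neurons, against 1541 in the water and 365 in the odor library (-6.11).

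Without regard to lists, the genes of KO neurons with the largest enrichments were mostly low in the epithelium. Of the 15 highest, 13 had an epithelium mean under 10. They were headed by Mbl2, a mannose-binding lectin, with 188 in KO neurons, against 3.47 in the water and 2.04 in the odor library (5.86). Mbl2 rested on 5 epithelium reads, and its neuron to epithelium ratio of 68.4 had a 95% exact Poisson interval of 29.3 to 211. The 2 exceptions were Lars2, a mitochondrial leucyl-tRNA synthetase and the highest value of the joined KO neuron column, with 83479 in KO neurons, against 2171 in the water and 1424 in the odor library (5.54), and Cited2, a transcription cofactor, with 7419 in KO neurons, against 205 in the water and 245 in the odor library (5.04). Also among the 15 were Adnp, a homeobox protein, at 4.66, Galnt2, a glycosyltransferase, at 4.03, Ddx4, a germ cell helicase, at 4.30, and Ntf5, a neurotrophin, at 4.31. Ntf5 rested on 3 epithelium reads, and its ratio of 30 had an exact Poisson interval of 10.3 to 145. Of the 15, 14 were also called higher in Het and 12 in WT.

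Among genes at 100 or more in KO neurons and 10 or more in the epithelium that were called higher in all 3 genotypes, a group defined after the values were seen, the leaders after Lars2 and Cited2 included Jakmip1, a microtubule-associated protein of neurons, with 508 in KO neurons, against 39.6 in the water and 34.4 in the odor library (3.76). Of the others, Il18, an interleukin, read 259 in KO neurons, against 23.6 in the water and 11.2 in the odor library (3.86), and Casp6, a caspase, read 534 in KO neurons, against 55.9 in the water and 48.4 in the odor library (3.34). Chga (chromogranin A, a dense-core vesicle protein) was the fourth highest value of the KO neuron column, with 13701 in KO neurons, against 2425 in the water and 2675 in the odor library (2.43). The 15 lowest genes, from Lcn13 to Rgr, were called lower in KO, Het and WT alike. They comprised gland secretions such as Odam (-8.88), Plunc (-8.58), Bpil3 (-8.40), Vmo1 (-8.27) and the lipocalins, the enzymes Cyp2a4, Cyp2a5 and Gpx3 (-7.55), the matrix proteins Sparc and Spp1 (-7.65), the protease inhibitor Serpina3n (-7.43) and the opsin-like Rgr (-7.41). Spp1 read 4.99 in KO neurons, against 1105 in the water and 1098 in the odor library.

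Enrichment varied with the epithelium level. Genes were grouped by the mean of all 6 epithelium libraries of the series. These values also form the enrichment, so the grouping itself places genes that are low in the epithelium toward higher enrichment in each genotype. For the 252 genes under 2, the median neuron value was 4.80 in KO, 2.80 in Het and 1.96 in WT, and the median enrichment was 1.73, 0.90 and 0.63. In that group 64.7% of genes were called higher in KO and 27.4% in WT. From 2 to 5 the median enrichments were 1.02 in KO, 0.18 in Het and 0.02 in WT, whereas at 300 or more they were -0.54, -0.29 and -0.20. The lowest 1% of KO neuron values ended at 2.22, and that of WT neuron values at 0.92. By count, 645 of the 1520 higher genes (42.4%) and 57 of the 2497 lower genes (2.28%) had a KO epithelium mean under 10, a split that the call itself largely sets, since a gene called lower must be high in the epithelium. Among the 11442 genes at 10 or more, 875 (7.65%) were higher and 2440 (21.3%) lower. Of the higher genes, 278 rested on fewer than 20 epithelium reads. Higher calls of genes at a few units, such as Foxd3, Trpm5 and Gucy2e (2.46), belong to this range, and what part library depth or pooling plays in it was not tested.

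**Figure D4:**
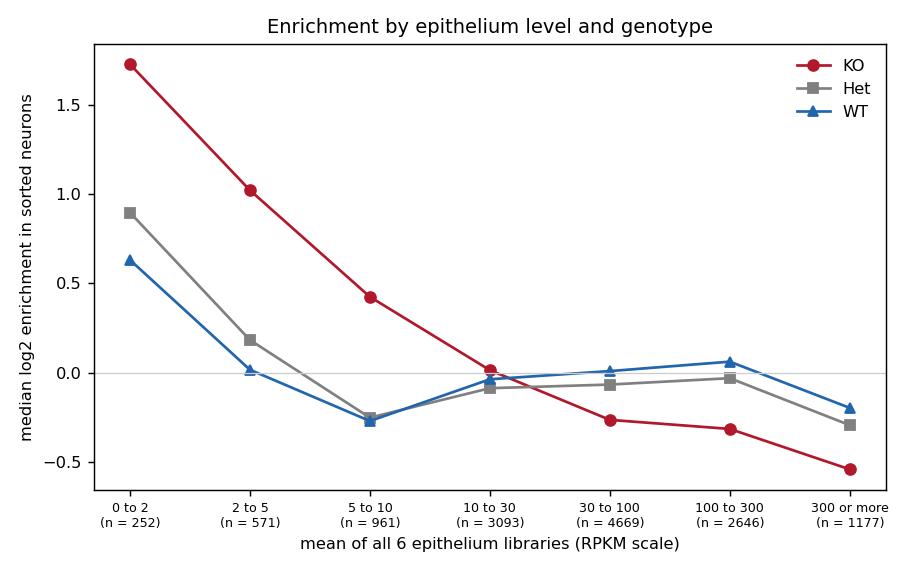
Median log2 enrichment in sorted neurons (vertical) for genes grouped by the mean of all 6 epithelium libraries (horizontal, RPKM scale, n genes below each group), in KO (circles), Het (squares) and WT (triangles). The KO line starts at 1.73 for genes under 2 and ends at -0.54 for genes at 300 or more, a wider span than in WT (0.63 to -0.20).

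Set beside the other genotypes, each with its own epithelium pair, KO list medians mostly lay nearer to 0. Over all joined genes the enrichment was also less spread in KO, with an SD of 1.39, against 1.73 in Het and 1.60 in WT. The all-gene medians were -0.11, -0.06 and -0.002. Some lists share members, and whether the lists differ beyond the all-gene spread was not tested. Of 38 lists with at least 5 joined genes, the KO median was nearer to 0 than the WT median in 31. The count was 23 of 38 against the water libraries alone and 30 against the odor libraries alone. The medians of 3 lists (endothelial, immediate early and axon guidance genes) differed in sign. Immediate early medians had the same sign in KO and WT against water alone (1.42 and 0.91) and odor alone (-0.17 and -0.62). Endothelial medians differed in sign only against water, and axon guidance medians only against odor. In WT 1802 genes (13.5%) were called higher and 2713 (20.3%) lower, and in Het 2096 (15.7%) and 2956 (22.1%). Of the genes higher in KO, 903 were also higher in WT, 59.4% of the KO genes and 50.1% of the WT genes. Of the lower genes 1880 were shared, 75.3% of the KO and 69.3% of the WT genes. Only 14 genes higher in KO were called lower in WT, and 2 genes lower in KO were called higher in WT. The mature neuron median was 1.24 in KO, 3.03 in Het and 1.94 in WT. For odorant receptors the medians were 0.86, 2.34 and 1.49, and for transduction genes 0.70, 1.78 and 1.44. Depletion was smaller in KO for horizontal basal cell genes, with medians of -1.65, -3.16 and -3.22, and for neuronal precursor genes, with -1.40, -2.27 and -2.40. Their median neuron values were low, at 11.6, 3.72 and 3.27 for basal and 8.94, 7.45 and 7.36 for precursor genes. Low values were higher in KO across all joined genes: the lowest 5% of neuron values ended at 4.36 in KO, 2.42 in Het and 1.83 in WT. What part this has in the smaller depletion was not tested. For mature neuron, transduction, horizontal basal and precursor genes KO lay nearer to 0 than WT against either library alone. For odorant receptors the order turned, with 1.27 in KO and 1.13 in WT against water, but 0.58 and 2.12 against odor. The epithelium values differed between genotypes too. The summed mature neuron level in the epithelium was 36087 and 45787 in the KO water and odor libraries, 18908 and 12600.5 in Het, and 45740.3 and 32177 in WT, so that both Het libraries were the lowest. In neurons the sum was 123725 in KO, 169131 in Het and 173097 in WT, close together in Het and WT and lower in KO. The whole neuron column was lower in KO too, with a sum of 1774030, against 2172770 in Het and 2244570 in WT. Over the 8740 genes ranked below by their KO minus WT difference, the median difference was -0.32. What part this shift across genes has in the lower KO sum and neuronal list medians was not tested. No such difference was tested, and kit and genotype cannot be told apart in the neurons.

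Single genes moved further. Krt5 had an enrichment of -1.34 in KO and -4.58 in WT, and Krt14 -0.36 and -4.16. Gap43 had 2.03 in KO and 1.05 in WT, and Nhlh2, a factor of newborn neurons, -0.45 and -2.31. Of 8740 plainly named genes at 10 or more in all 6 KO and WT values, the largest gains of KO over WT were in Hspa1b (-1.20 in KO, -6.04 in WT) and Hspa1a (-1.70 and -5.80), heat shock chaperones. Both rested on the WT odor library: Hspa1b read 37.3 in WT neurons, against 45.2 in the WT water and 4931 in the WT odor library, and Hspa1a read 74.1, against 69.5 and 8255. Against the water libraries alone the KO minus WT differences were -0.44 and -1.18 on the log2 scale. Next came S100a11 (-4.51 and -6.87), Aqp3 (-2.41 and -4.60) and Expi (-5.13 and -7.30). For Expi the KO minus WT difference was 1.09 against the water libraries alone and 3.35 against the odor libraries alone. The largest losses were in Hba-a2 (-7.07 and -3.73), Ddx3y (-2.50 and 0.38) and S100a13 (-0.90 and 1.73). The value of Hba-a2 is that of 1 globin copy of a near-identical pair. Its relative Hba-a1 differed less (-6.90 and -5.40), and Hbb-b1 (-3.54 and -4.48) and Hbb-b2 (-6.73 and -7.02) went the other way. Ddx3y is a Y-linked helicase. All 4 joined Y-linked genes were called lower in KO neurons, with a median of -3.01, against 0.17 in WT. Ddx3y read 16.3 in KO neurons, against 72.7 in the water and 117 in the odor library, and 148 in WT neurons. The sex of the animals behind each library is not given, and its part in any other difference was not tested.

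**Figure D5:**
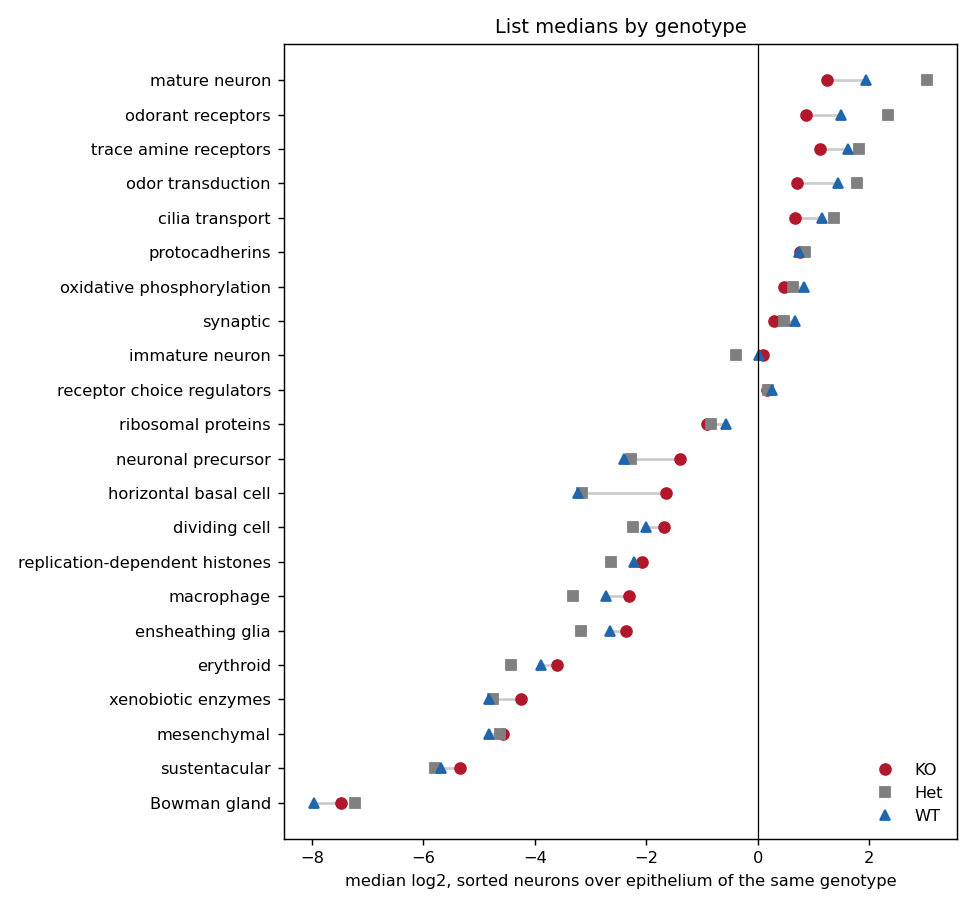
Median log2 enrichment of each gene list in sorted neurons over the epithelium of the same genotype, in KO (circles), Het (squares) and WT (triangles). For mature neuron genes the medians are 1.24, 3.03 and 1.94, and for horizontal basal cell genes -1.65, -3.16 and -3.22.

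Genes listed in 1 table only were in part receptors and secretions, as given above. Of plainly named genes listed only for neurons, the highest in KO neurons was Zdhhc22, a palmitoyltransferase, at 350.2, and Pou4f1, a POU homeobox factor of sensory neurons, read 117. Listed only for the epithelium were, among others, the lipocalins Lcn14 and Lcn3, the urinary proteins Mup4 and Mup5 and the peroxidase Gpx6. A gene missing from a table was not analysed here as a value of 0.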

How the data were processed

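Whole-transcriptome RNA of 2 pooled Dnmt3a KO sorted neuron libraries and 2 KO epithelium libraries was compared. The authors deposited RPKM values in 2 tables, 1 pooled column per genotype for neurons and 1 column per library for the epithelium, normalized separately. Builds mm9 and NCBIM37 and the programs featureCounts, DESeq, Picard 1.64, Bowtie2 2.1 and STAR 2.3.0 are named, per the submitters' processing notes, without their order. The annotation, the formula of normalization and the way neuron libraries were pooled are not given in the sources used here. The columns do not share a common sum, so levels are called RPKM-scale.

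Rows without values (7, neuron table) were left out. All 13369 joined genes reached 0.5 in either tissue. The whole reads behind the epithelium values were recovered for all 14613 listed genes within a relative tolerance of 1e-09, up to a divisor shared by a gene's counts, and were used for depth, Poisson intervals and limits on reads, not for a test. The recovery takes the most frequent ratio between libraries as that of equal reads; simulated data whose library factors were simple ratios of each other were not recovered, and data with other factors were. The pooled neuron column allowed no such recovery and no count test. Nothing says that libraries came from separate animals. Enrichment was computed with pandas 2.3.3 and numpy 2.4.6 in Python 3.11.15, with a pseudocount of 0.5, which understates the change of low genes. Poisson intervals used scipy 1.17.1. On data simulated for this comparison over 13369 genes, 200 of 200 genes changed by 4-fold or 8-fold were called in the right direction, and 0 of 8520 unchanged genes with over 100 reads were called, which covers counting error only and checks the arithmetic, not the spread between samples. Of the joined identifiers, 13175 matched the gene name table. No column of per-sample values was left unused.

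Members, gene lists and the rule for named genes were chosen with earlier results of these data known. The rule named marker list genes, the 15 highest (neuron value of 10 or more) and 15 lowest (epithelium mean of 10 or more) plainly named genes, 5 receptors each way and, among genes at 10 or more in all KO and WT values, 10 each way by the KO minus WT difference. The Y-linked list and the group called higher in all genotypes were added after values were seen. Alternatives were other pseudocounts, floors and scalings, the mean of logs, and each epithelium library left out; limits on reads, epithelium level and pseudogene copies were added after seeing the data. The remaining 21 samples were not analysed here.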

Additional observations from a re-analysis of the deposited data

Results flagged for a closer look

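The values below stand out because KO neurons lay on one side of both KO epithelium libraries while WT neurons lay on the other side of both WT libraries. None of these differences was tested, and genotype and library kit cannot be told apart in them.

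The Y-linked genes had a median enrichment of -3.01 in KO and 0.17 in WT (4 genes), and Ddx3y among them had -2.50 and 0.38. The lymphocyte genes had a median of 0.68 in KO and -1.42 in WT (4 genes), with KO values of 3.57 to 15.2 in neurons. Ntf5 had 4.31 in KO, on 3 epithelium reads, and -0.76 in WT. Itpripl2 had 0.97 in KO and -1.13 in WT, and Plekho2 had 0.35 and -1.57.

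In the other direction, S100a13, a small calcium-binding protein, had -0.90 in KO and 1.73 in WT. Ankrd26 had -0.66 and 1.46, and Inpp1, an inositol phosphatase, had -1.22 and 0.70. Avp, the vasopressin precursor, had -0.73 and 1.11, and Adam1a had -1.23 and 0.55. Apart from Ntf5, which was named for its KO enrichment, the genes named here were ranked for their difference between genotypes. Opposite signs among those ranked genes are a description of that choice.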

How the results depend on the processing

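No paired analysis was possible because the neuron table holds 1 pooled column per genotype, with no replicate to pair with an epithelium library. The counts of 1520 higher and 2497 lower genes stayed within 1.5 times under the other pseudocounts, a floor of 5 in either tissue, centring and quantile normalization. Dropping the floor or taking the mean of logs could not change them. All joined genes passed the floor, and a call already needs 2-fold against each library. Leaving out each epithelium library gave 2045 to 2176 higher and 2873 to 3007 lower genes, since 1 library then sets the call. Scaling all columns to the same sum gave 2933 and 1551. With limits added after seeing the data, 901 genes were higher at 50 or more epithelium reads and 875 at an epithelium mean of 10 or more, limits that themselves remove genes low in the epithelium.

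The mature neuron median of 1.24 was 1.73 after scaling to the same sum, and 1.00 to 1.55 with 1 library left out. The sustentacular median of -5.35 was -5.43 and -5.30 with pseudocounts of 0.1 and 1, -4.87 after scaling to the same sum, -5.24 when centred, -5.33 to -5.28 with 1 library left out, and -5.67 without genes that have a pseudogene copy. The odorant receptor median of 0.86 was 0.58 to 1.27 with 1 library left out, and 0.33 at 50 or more reads. In all, 2 list medians of at least 1 in size changed sign: muscle genes (-1.15) were 0.30 without the odor and -1.89 without the water library, and guanylyl cyclase D neuron genes (1.19) were -0.66 at an epithelium mean of 10 or more, where 2 members were left and the limit itself removes members that are low in the epithelium. Of 600 values of named genes under the listed alternatives, 503 moved by less than the spread between the epithelium libraries. Much of this was fixed in advance. Floors leave a gene's own value unchanged, and leaving out a library or taking the mean of logs moves it mostly within that spread. The count is therefore no measure of stability. None of the named genes enriched or depleted by 2-fold or more changed sign. With the odor libraries of KO and WT left out, chosen after seeing the data, the KO minus WT differences of Hspa1b and Hspa1a turned to -0.44 and -1.18. The epithelium's depth limits genes with few reads, and 338 genes had under 20 over both libraries. With 1 pooled neuron value, spread between neuron samples cannot be seen.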

Other observations

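A wider list of transcription factors of the olfactory lineage had 1 of 29 joined genes called higher and 7 lower in KO neurons, with a median of -0.10 that turned positive under the 3 rescalings. Runx1, a factor of precursors, read 5.16 in KO neurons, against 66.9 in the water and 96.3 in the odor library (-3.86). Sox2, a factor of basal and supporting cells, read 9.49 in KO neurons, against 65.1 in the water and 64.6 in the odor library (-2.71). By contrast Bcl11b, a zinc finger factor of maturing neurons, read 129 in KO neurons, against 70.7 in the water and 77.1 in the odor library (0.80), above both epithelium libraries.

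Channel genes outside transduction also differed among themselves. Kcnk10, a background potassium channel, read 223 in KO neurons, against 81.7 in the water and 79.4 in the odor library (1.46), and Hcn2, a pacemaker channel, read 163 in KO neurons, against 52.9 in the water and 57 in the odor library (1.56). Ano1, a chloride channel of epithelia, read 3.86 in KO neurons, against 27.3 in the water and 44.2 in the odor library (-3.06), and Kcnk1, another background potassium channel, read 28.1 in KO neurons, against 169 in the water and 180.0 in the odor library (-2.61). The paralogs Ano2 and Ano1 thus lay on opposite sides of the epithelium, as did Kcnk10 and Kcnk1.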
